A study of Mus musculus with 2 samples.

Results

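The 9 genes described here encode the calcium pumps of the endoplasmic reticulum (the SERCA family, Atp2a2 and Atp2a3), the calcium pumps of the plasma membrane (the PMCA family, Atp2b1, Atp2b2, Atp2b3 and Atp2b4) and the sodium-calcium exchangers of the plasma membrane (the NCX family, Slc8a1, Slc8a2 and Slc8a3). They were matched by gene symbol, and all 9 were found among 55536 genes. The RNA came from male B6CASTF1/J hippocampus at 2 months of age (the F1 cross of C57BL/6J and CAST/EiJ), and 300 ng of total RNA with ERCC spike-in RNA went into each library. The tissue label reads layer of hippocampus. Biological replicates 1 and 2 make up the only group, so no condition was compared and no test was made. Nothing beyond their numbering shows them to be different animals, and the SD below covers only the spread between these 2 libraries, which may be technical. Levels are in TPM, transcripts scaled to a common total, a measure already divided by transcript length. They are given as mean ± SD (n = 2).

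A neuron at rest keeps free calcium in its cytosol far below the level outside the cell and inside the endoplasmic reticulum. SERCA pumps spend ATP to move calcium from the cytosol into the endoplasmic reticulum. PMCA pumps spend ATP to push calcium out of the cell with high affinity, and calmodulin binding to their C-terminal tail raises their activity. NCX exchangers use the sodium gradient to carry calcium out at high capacity and can run in reverse when sodium builds up. Transcripts of all 3 families are spliced into forms that differ in regulation and location, so both gene levels and transcript shares were taken.

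Summed expected counts were 31422827 and 31303010 in replicates 1 and 2. Lists of markers for dentate granule cells, CA1 and CA3 pyramidal cells, interneurons, astrocytes, oligodendrocytes and microglia were detected in full, where detected means at least 1 TPM in both libraries. The choroid plexus marker Ttr was at 10.6 and 23.1 TPM in replicates 1 and 2, so the libraries differed in that marker. Of the other choroid plexus markers, Kl was nearly equal, at 4.04 and 3.96 TPM. Folr1, at 0.08 and 0.23 TPM, and Clic6, at 0.28 and 0.57 TPM, were not detected. In bulk RNA, fewer cells of a type and less RNA per cell cannot be told apart.

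All 9 genes were detected, where 26.2% of all genes and 57.7% of protein-coding genes were. Their median level was 116 TPM, against 14.7 TPM for detected protein-coding genes. The 9 genes ran from Atp2b1 at 409 ± 12 TPM to Atp2a3 at 2.23 ± 0.410 TPM, a 183.5-fold span. The order was Atp2b1, Atp2a2, Atp2b2, Slc8a2, Slc8a1, Atp2b3, Atp2b4, Slc8a3 and Atp2a3. No pair of neighbours in that order overlapped between its libraries. The closest pair was Slc8a2 over Slc8a1, with a ratio of means of 1.07, followed by Atp2b2 over Slc8a2 at 1.11. The same order, again with no overlap, was found in a second quantification made directly from the reads. With only annotated complete transcripts summed, an alternative chosen after seeing the data, Atp2b1 was at 173 ± 1.80 TPM, below Atp2a2 at 252 ± 6.58 TPM. With transcripts of the protein-coding type only, Atp2a2 instead stood below Atp2b1, Slc8a2, Atp2b2 and Slc8a1.

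**Figure D1:**
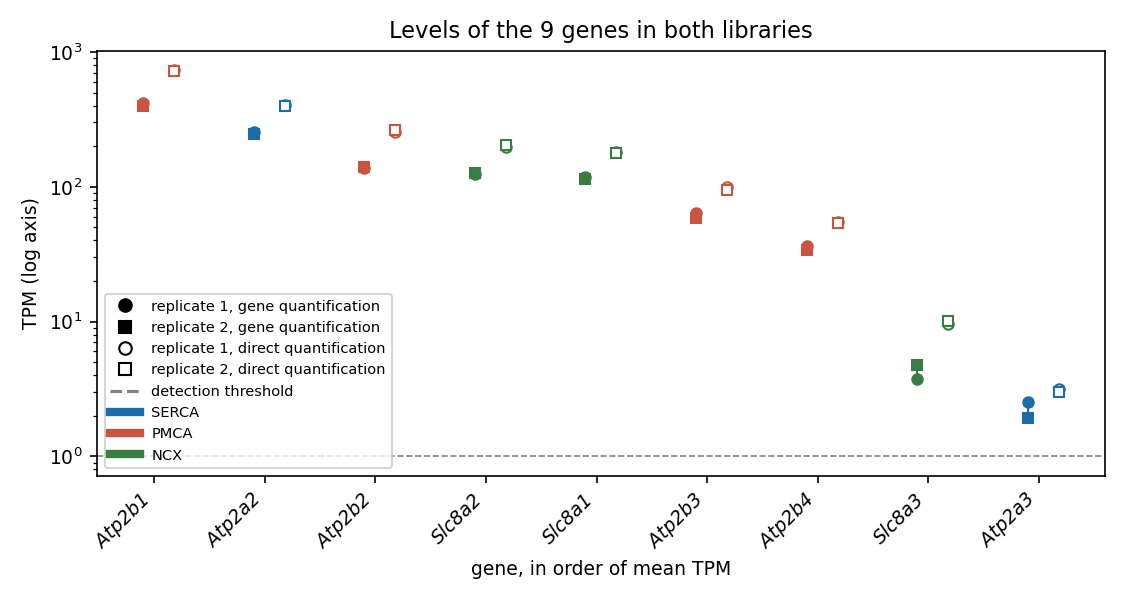
TPM on a log axis for each gene, with circles for replicate 1 and squares for replicate 2. Filled symbols give the gene quantification and open symbols the direct quantification, colours give the family, and the dashed line marks 1 TPM. By gene quantification both libraries nearly coincide for the 7 genes above 30 TPM and sit apart for Slc8a3 and Atp2a3. By direct quantification the libraries are closer for Slc8a3, at 9.62 and 10.1 TPM, and Atp2a3, at 3.18 and 3.03 TPM.

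None of the 9 genes differed 2-fold between the libraries, where 0.273% of 13916 genes with at least 50 expected counts in both did. The log2 ratio of replicate 2 over replicate 1 was above 0 for 3 genes and below 0 for 6, with a median of -0.06, against a median of -0.04 over all those genes. It ran from -0.38 for Atp2a3 to 0.36 for Slc8a3, the 2 genes with the lowest levels.

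The RNA of the ATP-driven pumps of the endoplasmic reticulum was almost wholly that of Atp2a2. Atp2a2, on chromosome 5 from 122453513 to 122502225 on the minus strand (mm10), was at 256 and 247 TPM in replicates 1 and 2. Its rank was 183 among protein-coding genes. It held 99.1 ± 0.137% of the SERCA total, so the summed SERCA TPM was nearly the TPM of Atp2a2. Protein was not measured.

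Atp2a2 has alternative coding ends. The SERCA2a form, best known from heart muscle, ends with a short coding stretch in a last exon of its own, and the SERCA2b form, found in most tissues, reads on into a longer tail with an extra membrane segment. Their sequences are shown because the end is what tells the forms apart. Each begins with the 24 coding bases that both share, in lower case, and capitals mark the part of the coding region that only that form has. The SERCA2a end lies on chr5:122454294-122454304 and the SERCA2b end on chr5:122457154-122457302, both on the minus strand of mm10.
SERCA2a end: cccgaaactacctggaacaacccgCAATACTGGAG
SERCA2b end: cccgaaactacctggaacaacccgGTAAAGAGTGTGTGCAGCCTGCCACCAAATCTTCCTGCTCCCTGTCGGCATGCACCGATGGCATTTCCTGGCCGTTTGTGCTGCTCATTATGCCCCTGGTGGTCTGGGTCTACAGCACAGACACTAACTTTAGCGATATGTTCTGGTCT

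Transcripts with the SERCA2b end held 83.2% of Atp2a2 TPM in replicate 1 and 85.5% in replicate 2, a mean of 84.3 ± 1.64%. The SERCA2a end held 15.2% and 13.7%, a mean of 14.5 ± 1.08%. The longer end thus led in both libraries, and also in the second quantification, where the shares were 77.5 ± 0.485% and 21.7 ± 0.499%. The SERCA2a transcript, Atp2a2-202, was at 39.1 and 33.9 TPM. Of 4 cardiac and skeletal muscle markers, 1 was detected (Myh6, cardiac myosin heavy chain), the summed level of the 4 was 2.02 and 2.94 TPM, and Ckm, the muscle creatine kinase, was at 0 and 0.04 TPM. Atp2a1, the SERCA of fast skeletal muscle, was at 0.33 and 0.25 TPM.

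The transcript with the highest Atp2a2 share was Atp2a2-203, at 159 and 150 TPM, or 61.5 ± 0.952% of the gene. The annotation types it as a target of nonsense-mediated decay. Its coding region of 1044 codons is the same as that of Atp2a2-201, the protein-coding SERCA2b transcript, which held 22.8 ± 2.59%. They differ outside the coding region, and from the stop codon on, with it counted, Atp2a2-203 has 2053 bases and Atp2a2-201 has 814. A leading transcript of this type was found for 1 of the 9 genes, and for 2.32% of detected protein-coding genes with more than 1 transcript. It was also the only one of the 9 leading transcripts not of the protein-coding type, where 8.21% of those genes led with such a transcript. In the second quantification Atp2a2-203 again led, at 43.7 ± 1.10%, with Atp2a2-201 at 33.8 ± 1.59%. The split between them was thus more even in the second quantification.

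Atp2a3, the SERCA3 gene known from platelets, other blood cells and Purkinje neurons, was the lowest of the 9. It lies on chromosome 11 from 72961169 to 72993044 on the plus strand and was at 2.52 and 1.94 TPM in replicates 1 and 2. Its expected counts were nearly equal, at 193 and 196. A retained-intron transcript of 347 bases, Atp2a3-206, took 18.3% of the TPM in replicate 1 and 0% in replicate 2. With protein-coding transcripts only, the log2 ratio of Atp2a3 was 0.02 in place of -0.38. The full-length Atp2a3-201, of 1038 codons, was at 1.85 and 1.88 TPM. Of the platelet markers, Pf4 was at 0.81 and 1.52 TPM and Ppbp at 0.05 and 0.18 TPM, while the haemoglobin genes Hbb-bs and Hba-a1 each averaged 136 TPM. Of 4 Purkinje markers 2 were detected. These were Car8, at 1.15 and 1.53 TPM, and Calb1, also listed for dentate granule cells, at 66.3 and 74.4 TPM. Pcp2 was at 0.36 and 1.18 TPM and Ppp1r17 at 0.05 and 0.34 TPM. The part of such cells in the Atp2a3 level was not tested.

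The plasma membrane pumps held the largest share of the 9 genes' summed TPM, at 56.3 ± 0.191%, against 22.2 ± 0.146% for SERCA and 21.5 ± 0.337% for NCX. The order of the lower pair of families depended on the measure. NCX was above SERCA in expected counts, at 25.3 ± 0.323% against 23.1 ± 0.0297%, and with transcripts of the protein-coding type only, at 26.3 ± 0.254% against 10.3 ± 0.310%. The latter leaves out Atp2a2-203. With complete transcripts only, PMCA held 47.7 ± 0.0587%, SERCA 29.7 ± 0.383% and NCX 22.6 ± 0.324%. PMCA led in all 5 measures.

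**Figure D2:**
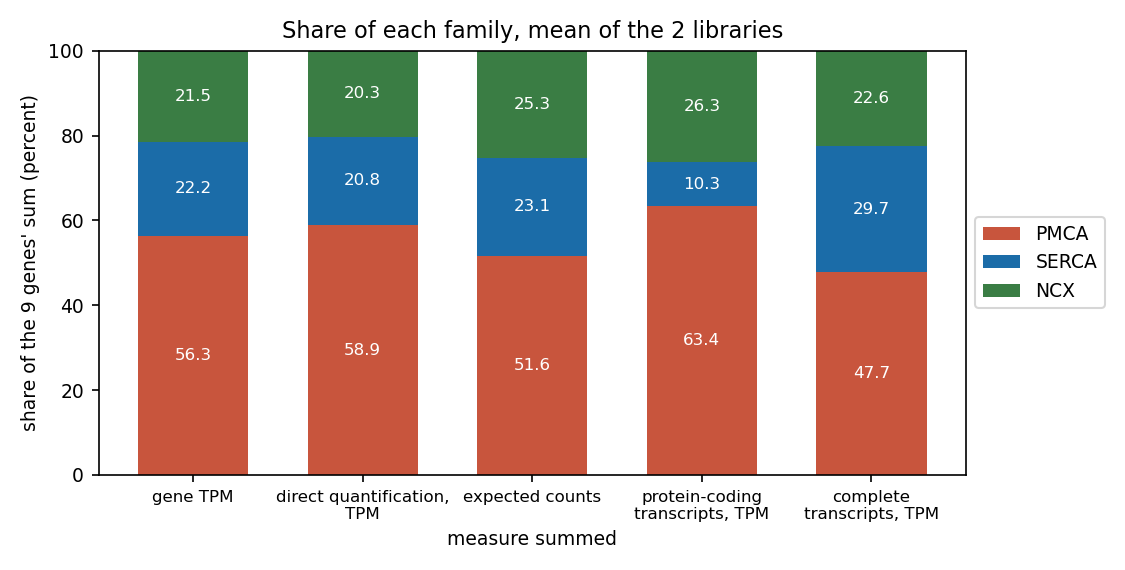
Share of the 9 genes' sum held by PMCA, SERCA and NCX, in percent, as the mean of the 2 libraries under 5 measures. PMCA is the lowest block and the largest in each bar, between 47.7% and 63.4%, and the SERCA block is smallest with protein-coding transcripts only, at 10.3%.

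Within the PMCA family Atp2b1 led. Atp2b1 encodes PMCA1, the widely expressed housekeeping form, and lies on chromosome 10 from 98914406 to 99026143 on the plus strand. It was at 418 and 401 TPM in replicates 1 and 2, rank 82 among protein-coding genes, and held 63.6 ± 0.319% of PMCA. Atp2b2 encodes PMCA2, a fast pump of neurons and hair cells, and lies on chromosome 6 from 113743831 to 114042613 on the minus strand. It was at 137 and 140 TPM, or 21.5 ± 0.801% of the family. These values put Atp2b1 well above Atp2b2 in each library. With complete transcripts only, the gap was smaller, at 173 ± 1.80 TPM for Atp2b1 and 138 ± 1.80 TPM for Atp2b2.

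Atp2b3 and Atp2b4 were lower. Atp2b3 encodes PMCA3, a form largely of brain, and lies on chromosome X from 73503086 to 73571005 on the plus strand. It was at 63.6 and 58.4 TPM, or 9.47 ± 0.348% of PMCA. Atp2b4 encodes PMCA4, a broadly expressed form, and lies on chromosome 1 from 133699457 to 133801041 on the minus strand. It was at 36.5 and 34.1 TPM, or 5.48 ± 0.135% of PMCA.

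The PMCA genes share a splice site, called site C, in the part of the coding region that encodes the calmodulin-binding tail. When its exon is included the reading frame shifts and the pump ends in the shorter a tail. When it is skipped the pump has the b tail, whose end binds PDZ proteins. The inserts are shown because the form turns on them. Capitals are the insert exon, or for Atp2b2 the first of its 2 insert exons, and lower-case letters are the coding bases beside it in that transcript. In Atp2b2 the lower-case bases on the right belong to the next insert exon, of 127 bases, in which the coding region ends. The Atp2b4 exon is that of Atp2b4-203, and the leading Atp2b4-201 has a longer version of it. Positions in mm10 are chr10:99019278-99019431 (plus strand), chr6:113755217-113755388 (minus), chrX:73559864-73560017 (plus) and chr1:133711642-133711822 (minus), for Atp2b1 to Atp2b4 in turn.
Atp2b1 site C insert: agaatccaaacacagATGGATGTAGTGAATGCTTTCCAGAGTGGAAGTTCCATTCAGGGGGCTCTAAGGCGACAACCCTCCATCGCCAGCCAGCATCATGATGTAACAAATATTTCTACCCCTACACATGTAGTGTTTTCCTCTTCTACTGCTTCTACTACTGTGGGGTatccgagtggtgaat
Atp2b2 site C insert: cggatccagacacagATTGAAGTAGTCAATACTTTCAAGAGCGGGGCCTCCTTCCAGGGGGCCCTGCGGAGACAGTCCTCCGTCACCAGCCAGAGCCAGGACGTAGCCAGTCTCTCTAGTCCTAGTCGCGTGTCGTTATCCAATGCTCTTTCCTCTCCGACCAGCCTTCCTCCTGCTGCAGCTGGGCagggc
Atp2b3 site C insert: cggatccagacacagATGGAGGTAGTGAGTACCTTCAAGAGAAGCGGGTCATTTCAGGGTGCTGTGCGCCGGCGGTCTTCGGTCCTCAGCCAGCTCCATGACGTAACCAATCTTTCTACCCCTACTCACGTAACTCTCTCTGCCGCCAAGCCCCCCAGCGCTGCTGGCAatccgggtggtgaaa
Atp2b4 site C insert: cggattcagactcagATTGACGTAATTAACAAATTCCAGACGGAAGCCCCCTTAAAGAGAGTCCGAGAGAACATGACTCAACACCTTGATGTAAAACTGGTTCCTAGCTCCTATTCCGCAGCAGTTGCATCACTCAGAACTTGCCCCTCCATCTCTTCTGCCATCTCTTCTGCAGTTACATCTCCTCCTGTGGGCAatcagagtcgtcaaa

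The capitals number 154, 172, 154 and 181 bases, and each leaves a remainder of 1 when divided by 3. The version in Atp2b4-201 has 191 bases, and its coding region ends within that exon after 186 of them. The inserts of Atp2b1 and Atp2b3 have equal length and match at 98 of 154 bases (63.6%). Atp2b3-203, with the insert, has 1173 codons and Atp2b3-202, without it, has 1220.

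Use of the insert differed in size among the 4 genes. Over transcripts that reach site C, it was 40.2 ± 1.69% of TPM for Atp2b1, 11.1 ± 1.00% for Atp2b2, 73.7 ± 0.668% for Atp2b3 and 90.4 ± 3.47% for Atp2b4. The genes with the higher levels, Atp2b1 and Atp2b2, thus mostly skipped it, and the lower ones mostly included it. In the second quantification the shares were 41.5 ± 1.87%, 12.4 ± 0.627%, 66.4 ± 0.865% and 84.6 ± 0.789%, in the same order of genes.

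By library, the insert held 41.4% and 39.0% of Atp2b1, 10.4% and 11.8% of Atp2b2, 74.2% and 73.2% of Atp2b3, and 87.9% and 92.8% of Atp2b4. The libraries of different genes did not overlap. In Atp2b1 a further 2.93 ± 0.661% came from Atp2b1-209, which has part of the insert, or 0.833 ± 0.178% by expected count. In Atp2b3 another end, Atp2b3-201, held 5.60 ± 1.49%, and 12.9 ± 1.82% in the second quantification.

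The Atp2b1 share depends on a fragment. The only transcript with its full insert is Atp2b1-210, of 1460 bases, which the annotation tags as incomplete, and the skipped form is Atp2b1-201, of 7130 bases. By expected count the insert held 11.9 ± 0.652% of Atp2b1, in place of 40.2%. By count, the insert of Atp2b2 held 11.4 ± 1.15%, that of Atp2b3 74.9 ± 0.507% and that of Atp2b4 86.9 ± 3.79%, so those genes moved little. By count the library ranges of Atp2b1 and Atp2b2 overlapped. A count rises with transcript length, which TPM divides out. Incomplete transcripts held 57.6% of Atp2b1 TPM, against 45.1% in Slc8a1 and 0% in Atp2b2, Atp2b3 and Atp2b4.

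In Atp2b1 the leading transcript, Atp2b1-201 with 1220 codons, was at 151 and 152 TPM, or 37.1 ± 1.15% of the gene's TPM and 74.8% of its expected count. Atp2b1-210 was at 111 and 103 TPM, or 26.1 ± 0.759%. The incomplete Atp2b1-208, of 1588 bases, held 19.8 ± 0.749%. Both fragments were thus below the full-length form in each library. Atp2b1-207, of 1249 bases, held 7.49 ± 0.588%, and 14.0 ± 0.552% in the second quantification.

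In Atp2b2 no transcript passed 40%. Atp2b2-201 held 38.0 ± 0.293% and Atp2b2-203 held 29.0 ± 2.78%, and both have the same coding region of 1198 codons. Atp2b2-203, of 8877 bases, was at 14.7 ± 1.34% in the second quantification. Atp2b2-206, the transcript with the site C insert, has 1154 codons and is typed as a target of nonsense-mediated decay. It was at 13.6 and 15.7 TPM.

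Atp2b2 also varies at site A, in the first cytoplasmic loop, where the w form has 3 exons and the z form none. The w form is known for targeting to the apical membrane. The 3 exons of Atp2b2-202 are shown joined, in capitals, between lower-case flanks. They lie between positions 113797110 and 113803779 on the minus strand of chromosome 6 and add 135 bases, a multiple of 3.
Atp2b2 site A exons: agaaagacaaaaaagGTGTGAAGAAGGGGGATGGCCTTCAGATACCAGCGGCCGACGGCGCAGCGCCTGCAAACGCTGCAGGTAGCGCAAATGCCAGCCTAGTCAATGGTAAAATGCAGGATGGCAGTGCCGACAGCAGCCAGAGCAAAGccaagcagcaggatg

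Atp2b2-202, of 1243 codons, was at 22.8 and 25.5 TPM in replicates 1 and 2. That transcript, the only classified one with all 3 site A exons, held 17.5% and 19.3%, a mean of 18.4 ± 1.29%. The other 4 classified transcripts have none of these exons. They also differ from the stop codon on, where Atp2b2-202 has 246 bases and the other 4 have 1474 to 4709. The share thus does not rest on the site A exons alone. No classified transcript has only some of them, so such forms could not be scored. In the second quantification the share was 27.7 ± 1.35%, above the first in both libraries. By expected count of the first quantification it was 11.6 ± 0.944%. The form without the exons led in both.

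Atp2b3 and Atp2b4 had complete leading transcripts. Atp2b3-203 was at 47.2 and 42.7 TPM and Atp2b3-202 at 13.5 and 11.7 TPM, a steady ratio between the libraries. In Atp2b4, Atp2b4-201, of 1166 codons, held 44.9% in replicate 1 and 50.3% in replicate 2. Atp2b4-204, a noncoding processed transcript of 588 bases, held 27.3 ± 1.11% of TPM and 2.43% of the expected count. Atp2b4-203, of 1172 codons, held 17.1 ± 0.410%.

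**Figure D3:**
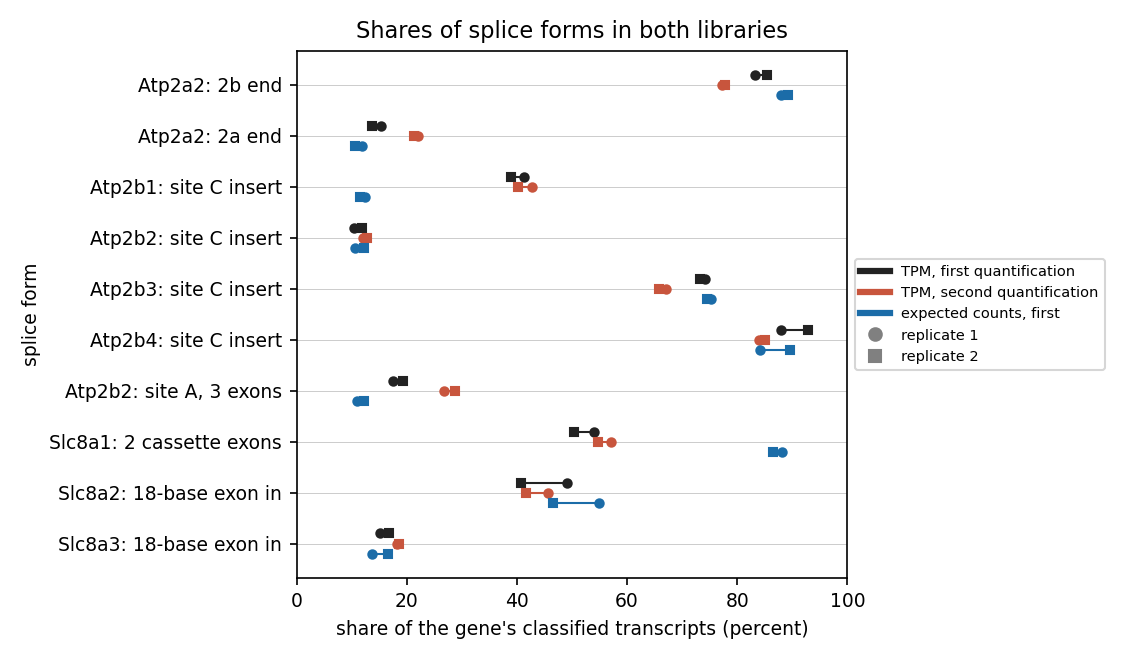
Share of the classified transcripts of each gene, in percent, with circles for replicate 1 and squares for replicate 2, in TPM of both quantifications and in expected counts of the first. By TPM of the first quantification the site C insert runs from 11.1% in Atp2b2 to 90.4% in Atp2b4, and the counts of Atp2b1 and Slc8a1 sit far from their TPM.

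Among the exchangers, Slc8a2 and Slc8a1 stood close together and Slc8a3 far below. Slc8a2 encodes NCX2, a form of neurons, and lies on chromosome 7 from 16129826 to 16161063 on the plus strand. It was at 124 and 126 TPM in replicates 1 and 2. Slc8a1 encodes NCX1, the form of heart and many other tissues, and lies on chromosome 17 from 81373105 to 81738377 on the minus strand. It was at 119 and 114 TPM. The 2 ranges do not overlap, though the gap is small.

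Slc8a3 encodes NCX3, a form of brain and skeletal muscle, and lies on chromosome 12 from 81197915 to 81333180 on the minus strand. It was at 3.72 and 4.77 TPM, with 382 and 453 expected counts. Slc8a2 held 50.9 ± 0.779% of NCX, Slc8a1 47.4 ± 1.09% and Slc8a3 1.73 ± 0.312%. The second quantification put Slc8a3 at 9.84 ± 0.317 TPM and at 2.51 ± 0.0710% of NCX. Its TPM scale covers other entries, and its values were 1.39 (Atp2a3) to 2.32 (Slc8a3) times the first over the 9 genes.

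Slc8a1 has small cassette exons in the part of the coding region that encodes the large cytosolic loop. The heart form is known to carry the full set and brain forms fewer. The regions of Slc8a1-201 and Slc8a1-204 are shown to let the reader see what differs. In the first, capitals are the 2 exons, of 21 and 15 bases, that Slc8a1-204 lacks, and in the second they are the 2 cassette exons, of 18 and 69 bases, that it has. The lower-case letters are neighbouring coding bases. Both are on the minus strand of chromosome 17, from 81441652 to 81442223 for the capitals of the first and from 81437745 to 81441790 for those of the second.
Slc8a1-201 cassette region: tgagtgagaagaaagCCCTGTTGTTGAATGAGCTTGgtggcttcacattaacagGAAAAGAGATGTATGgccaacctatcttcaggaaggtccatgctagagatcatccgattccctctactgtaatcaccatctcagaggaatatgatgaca
Slc8a1-204 cassette region: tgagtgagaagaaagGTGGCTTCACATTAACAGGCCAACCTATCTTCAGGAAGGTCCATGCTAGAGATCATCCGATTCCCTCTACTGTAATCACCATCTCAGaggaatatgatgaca

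The 2-exon form, Slc8a1-204, was at 35.1 and 31.5 TPM, and held 54.0% and 50.3% of the transcripts that span the region, a mean of 52.1 ± 2.57%. Transcripts with 4 cassette exons, led by Slc8a1-201, held 47.9 ± 2.57%. In TPM the forms were thus nearly level, but Slc8a1-204 has 18464 bases and took 87.3 ± 1.14% of the region's expected counts. The forms also differ from the stop codon on, where Slc8a1-204 has 15589 bases and the transcripts with 4 cassette exons 3 to 419. Only these 2 numbers of cassette exons were among the classified transcripts, so no other number could be scored. Among those with 4, Slc8a1-203 has a different 21-base exon from Slc8a1-201, at 81441861 to 81441881. Slc8a1-203 was at 1.58 and 5.43 TPM in replicates 1 and 2 and was not scored apart. In the second quantification the share of Slc8a1-204 was 55.9 ± 1.71% of TPM.

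The leading Slc8a1 transcript does not span this region. Slc8a1-205, of 2017 bases and tagged incomplete, was at 53.6 and 51.4 TPM, or 45.1 ± 0.0574% of the gene's TPM and 12.6% of its expected count. A leading transcript tagged incomplete was found for 1 of the 9 genes, and for 3.35% of detected protein-coding genes with more than 1 transcript. With complete transcripts only, Slc8a1 was at 63.9 ± 1.75 TPM.

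**Figure D4:**
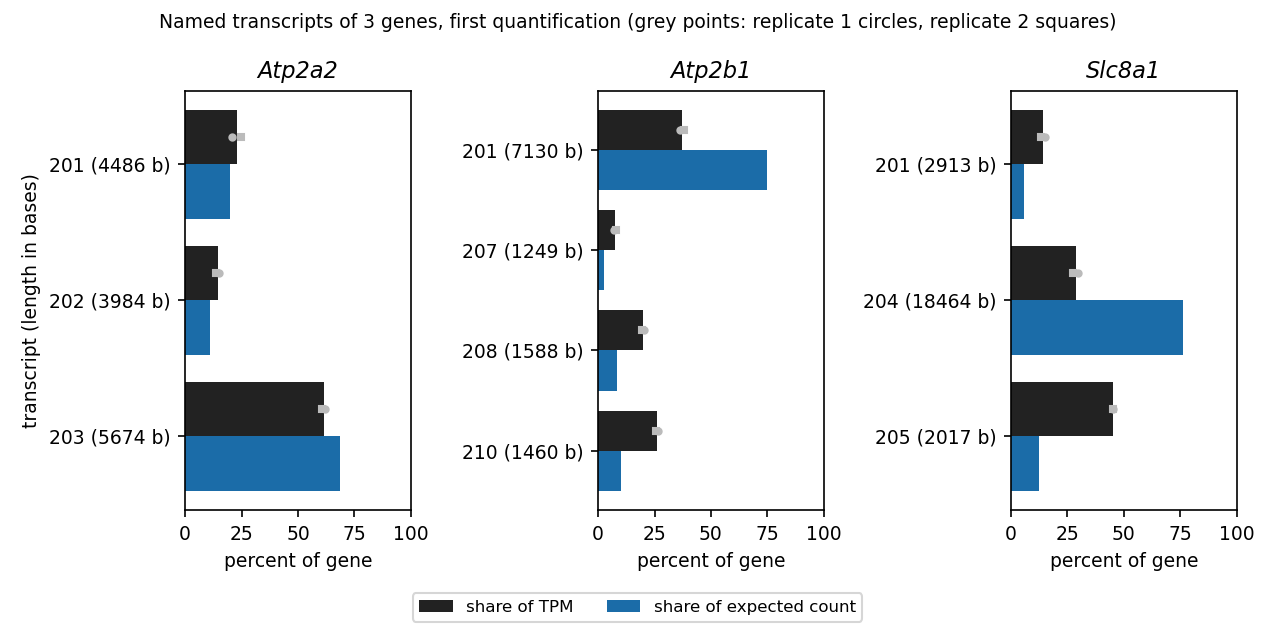
Share of each gene's TPM (black, mean of the 2 libraries, with the libraries as grey points) and of its expected count (blue) in its named transcripts, in percent, with transcript length in bases. Short transcripts of Atp2b1 and Slc8a1 take far more of the TPM than of the counts, as for Slc8a1-205 at 45.1% and 12.6%.

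Slc8a2 and Slc8a3 each have an 18-base coding exon that some transcripts skip. The exons are shown, since the forms were sorted by them, with lower-case flanks and the exon in capitals. They lie on chr7:16150574-16150591 (plus strand) and chr12:81209454-81209471 (minus strand).
Slc8a2 18-base exon: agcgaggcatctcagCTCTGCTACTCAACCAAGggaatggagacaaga
Slc8a3 18-base exon: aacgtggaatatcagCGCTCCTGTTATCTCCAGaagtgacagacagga

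The exons match at 9 of 18 bases. Slc8a2 transcripts with the exon held 49.1% in replicate 1 and 40.8% in replicate 2, a mean of 44.9 ± 5.88%, and those without it 50.9% and 59.2%. In the second quantification the shares with the exon were 45.7% and 41.6%, so the same library was the lower one. The Slc8a2 forms also differ from the stop codon on. There Slc8a2-202, with the exon, has 1886 bases and Slc8a2-201, without it, has 1336. Their shares thus do not rest on the exon alone. Slc8a3 transcripts mostly lacked the exon, with 16.0 ± 1.18% including it, and 18.3 ± 0.260% in the second quantification. Those with it were at only 0.52 and 0.71 TPM in the first. By expected count they held 15.1 ± 2.06% in the first and 25.5 ± 1.42% in the second. The transcripts without it include a fragment, Slc8a3-204, so these shares depend on it. From the stop codon on, Slc8a3-201, with the exon, has 1218 bases and Slc8a3-202, without it, has 1579.

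In Slc8a3 the quantifications differed on the transcripts. Slc8a3-202, of 921 codons, held 71.5 ± 9.16% in the first and 35.7 ± 4.46% in the second. The incomplete Slc8a3-204, of 673 bases, held 4.18 ± 5.92% and 29.6 ± 3.14%, and the retained-intron Slc8a3-205 held 9.88 ± 2.60% and 20.0 ± 1.86%. The same transcript led in both. In replicate 1 of the second quantification the lead was narrow, with Slc8a3-202 at 32.5% and Slc8a3-204 at 31.9%.

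Across the 9 genes, the leading transcript was the same in both quantifications for every gene, where it differed for 24.7% of detected genes with more than 1 transcript. The leading transcript's share was at least 5 points apart between the libraries for 4 of the 9 genes (Atp2a3, Atp2b4, Slc8a2 and Slc8a3), where it was for 44.8% of those genes. The lowest-level genes were thus among those 4. Of the 55 annotated transcripts, 4 were listed at 0 in every file.

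Sequence shared between genes could move reads among them. Of all 31-base words in the transcripts of a gene, at most 0.686% (Atp2b3) also occurred in another of the 9 genes, and at most 4.49% (Atp2a2) in any other gene, mostly Gm30970. Slc8a2 shared none. Genes that overlap the 9 were low, with Gm44167, inside an Atp2b2 intron, the highest at 2.55 and 2.17 TPM. Genes whose exons overlap those of the 9 stayed at or below 0.08 TPM.

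The 9 genes stand among other calcium handlers. In the list of other P-type calcium pumps 1 of 3 was detected, Atp2c1, the Golgi pump, at 102 and 92.0 TPM in replicates 1 and 2. Atp2c2 was at 0.78 and 0.72 TPM. Of 6 other sodium-calcium exchangers 4 were detected. Slc24a2, a potassium-dependent exchanger of neurons, was at 155 ± 9.31 TPM, above every NCX gene in both libraries. Slc24a3 was at 75.2 ± 3.42 TPM and Slc24a4 at 19.0 ± 0.0354 TPM, while Slc24a1 and Slc24a5 were under 1 TPM. The mitochondrial exchanger Slc8b1 was at 4.64 ± 0.410 TPM.

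Of 11 pump subunits and regulators, 10 were found by symbol and 7 were detected. Calm3 and Calm2, which encode calmodulin, the activator of PMCA, were at 907 ± 38.8 and 892 ± 6.63 TPM. Nptn and Bsg, neuroplastin and basigin, which are obligate PMCA subunits, were at 344 ± 5.85 and 221 ± 2.76 TPM. Their levels were each below that of Atp2b1. The peptides that restrain SERCA in muscle were under 1 TPM, with Pln at 0.40 and 0.43, Sln at 0.15 and 0.11, and Mrln at 0.20 and 0.

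All 9 mitochondrial calcium genes were detected, the highest being Vdac1 at 217 ± 5.86, Smdt1 at 59.5 ± 4.50 and Letm1 at 44.8 ± 1.33 TPM. Of 7 proteins of the store lumen 5 were detected, led by Calr at 195 ± 13.7, Canx at 166 ± 4.14 and Hsp90b1 at 134 ± 4.03 TPM, and each was below Atp2a2. Casq1 and Casq2, the muscle calsequestrins, averaged 0.175 and 0.595 TPM. All 3 cytosolic buffers were detected, with Calb1 at 70.4 ± 5.71, Pvalb at 24.8 ± 1.43 and Calb2 at 16.7 ± 0.255 TPM. None of the genes of these 6 lists that had 50 counts in both libraries differed 2-fold.

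**Figure D5:**
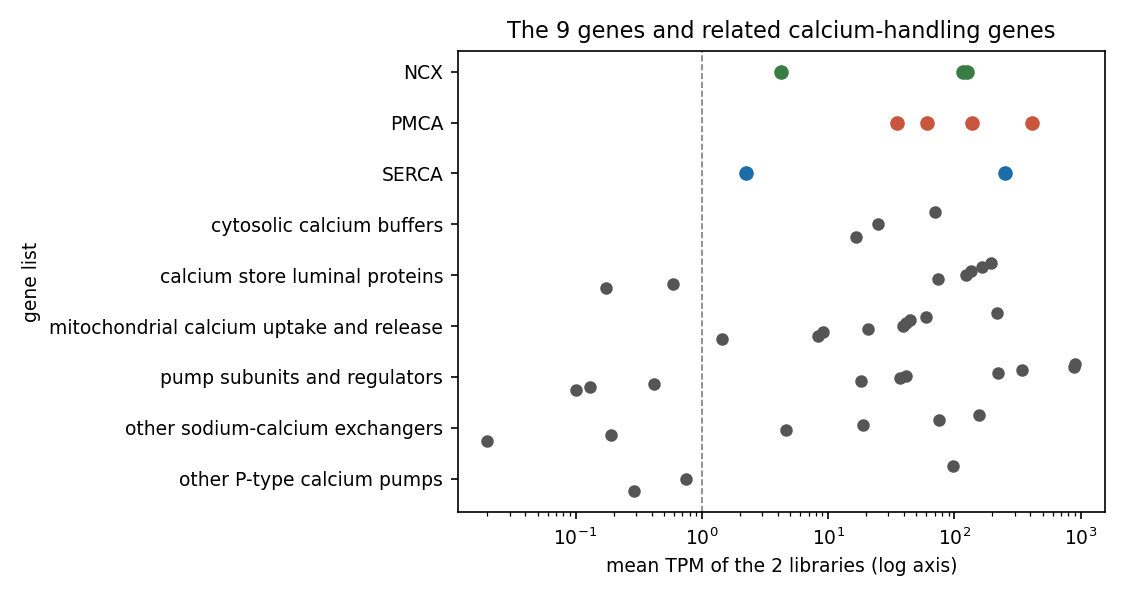
Mean TPM of the 2 libraries on a log axis for the 9 genes by family and for 6 lists of related genes, with each point a gene and the dashed line at 1 TPM. Atp2b1 at 409 TPM lies below Calm3 and Calm2 and above the other points shown.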

How the data were processed

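Each of the 2 libraries had a gene quantification and 2 transcript quantifications on the mm10 build with the GENCODE M21 annotation. The deposited expected count estimates how many reads belong to a feature, per the file headers, and can be fractional. The deposited TPM, also per the file headers, is normalized within a file over genes, spike-ins and other entries together, so protein-coding genes held 44.8 and 43.7% of TPM in the gene files and 78.9 and 78.7% in the direct files, and the TPM of the 2 kinds of file are on different scales. The gene and first transcript files have RSEM columns and the second, made directly from the reads, kallisto columns, per the file headers. The program versions were not given in the sources used here. The authors gave within-library TPM intervals of unstated level, which overlapped between the libraries for 6 of 9 genes. For 6 genes the TPM lay outside its own interval in both libraries.

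Members were matched by the symbol in the transcript names and their gene identifier. The members, lists and thresholds were chosen with earlier results of these data known. Named were all members, transcripts holding at least 10% of a gene on average in either quantification or with a known splice role, and, of each list, the 3 highest and those under 1 TPM. Bsg, Slc8b1, the cell type markers and Atp2a3-206 were named outside that rule, after their values were seen. A gene of the list of pump subunits and regulators is not reported here. Shares were recomputed from TPM. Coding ends, inserts and sequences were read from the annotation and its transcripts, and reads of the CAST/EiJ haplotype were assigned to the C57BL/6J reference. A gene was 2-fold apart at a TPM ratio of 2 either way with at least 50 expected counts in both libraries, a call tested on simulated data. Scaling alternatives used edgeR 4.0.16 and DESeq2 1.42.0 under R 4.3.3, and Python 3.11.15 with pandas 2.3.3 did the rest. No protein sequences were used here, and no p-value was computed.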

Additional observations from a re-analysis of the deposited data

How the results depend on the processing

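The error of each value is the spread of 2 libraries. By gene TPM, the genes with the fewest counts, Atp2a3 and Slc8a3, had the widest relative spread. In the direct quantification their log2 ratios were -0.07 and 0.07, against -0.09 for Atp2b3. All 9 genes stayed detected at 0.5 TPM, in the direct quantification and without either library, and 7 did at 5 TPM. None was 2-fold apart under TMM scaling, DESeq2 size factors, the direct quantification, protein-coding rescaling, a pseudocount of 1 or no count filter, and no leading transcript differed between the quantifications with protein-coding transcripts only or without either library. The family shares moved by more than their SD. PMCA was 58.9% in the direct quantification, 51.6% in expected counts, 63.4% with protein-coding transcripts only and 47.7% with complete transcripts only. SERCA was 20.8, 23.1, 10.3 and 29.7% in those settings, and NCX 20.3, 25.3, 26.3 and 22.6%. Leaving out each library gave PMCA 56.2 to 56.4%, SERCA 22.1 to 22.3% and NCX 21.2 to 21.7%. The log2 ratio of Atp2a3 was 0.03 with TMM, 0.02 with DESeq2 size factors and -0.07 in the direct quantification, against -0.38 in TPM. That of Slc8a3 was 0.26, 0.25 and 0.07, against 0.36. Complete transcripts only, and ratios from protein-coding transcripts, were added after seeing the data. Among recomputed values of single genes, transcripts and splice forms, 55 moved by at least the SD between libraries (for log2 ratios, the SD over all genes) and 167 by less or not at all. Leaving out 1 of 2 libraries moves a mean by less than their SD by construction. Rescaling over protein-coding genes changes the scale of every TPM, so the levels of all 9 genes moved by construction. Levels in the direct quantification are on another scale as well. Beyond this, the cause of the moves was not tested. No paired analysis was possible because there was only 1 group.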
